A study of Mus musculus with 10 samples.

Results

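The genes described here make new fatty acids from carbohydrate in brown adipose tissue, or control that synthesis. They are 9 genes chosen by name, 9 of the 26863 genes in the deposited table: the enzymes Acly, Acaca, Acacb, Fasn and Me1, the cytosolic regulators Thrsp and Mid1ip1, and the transcription factors Mlxipl and Srebf1. All 9 passed the filter on low values. PolyA RNA of the subcutaneous brown fat depot between the shoulder blades was sequenced in 5 PnocCre and 5 Wildtype libraries, with tissue collected 1 h after mice received CNO (clozapine-N-oxide), a drug that activates designer receptors. The study's question was how activating neurons that make prepronociceptin (PNOC), in the medial preoptic area, a brain region that regulates body temperature, acts on brown fat. In the PnocCre line, Cre is made where the gene of prepronociceptin is active. Wildtype libraries also come from CNO-injected mice, and no group without CNO was analysed here. The sources used here give neither the designer receptor and its delivery nor the strain, age and sex of the mice. Whether each library is 1 animal is not stated, and p-values therefore reflect only sample-to-sample spread, which may be technical.

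In de novo lipogenesis, citrate exported from mitochondria is cut by ATP citrate lyase (Acly) to give cytosolic acetyl-CoA. Acetyl-CoA carboxylase (Acaca, and its relative Acacb at the mitochondrial surface) turns this into malonyl-CoA, which is both a building block and a brake on the entry of fatty acids into mitochondria. Fatty acid synthase (Fasn) joins the blocks into palmitate with NADPH, part of which malic enzyme (Me1) supplies. The carbohydrate-responsive factor ChREBP (Mlxipl) and the insulin-responsive factor SREBP (Srebf1) drive transcription of these enzymes. Brown fat is among the tissues with the most active synthesis of this kind, and it burns as well as makes fatty acids.

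Mean levels of all 9 genes were lower in PnocCre than in Wildtype brown fat, but 0 of 9 passed the test and 0 of 9 separated the groups. Log2 fold changes (PnocCre over Wildtype) ran from -0.82 for Acly to -0.15 for Mlxipl, with a median of -0.58. They are differences of mean log2 values, which weight low libraries more than a ratio of mean counts does. The limma test across 15301 genes called 0 of them at an adjusted p under 0.05 (0% of genes tested), and the adjusted p-values of the 9 ran from 0.194 to 0.643. At an unadjusted p under 0.05, 4 of the 9 were lower (Thrsp, Me1, Acaca and Acacb), where 8.07% of all genes tested were, and 22.0% of the 2318 genes at least as abundant as Mid1ip1, the least abundant of the 9. Over all genes tested, 50.7% had a log2 fold change below 0 and the median was -0.01, and among those 2318 abundant genes it was -0.16, with 77.0% of them below 0. DESeq2 on the recovered reads called 575 genes, 3.44% of the 16733 with an adjusted p, and 0 of the 9. Library weights in limma gave 53 calls (0.346%) and rescaling to adipocyte markers 29 (0.190%), with 0 of the 9 among either. The DESeq2 total was 292 without PnocCre replicate 2, 216 without Wildtype replicate 2, 273 without Wildtype replicate 4 and 241 without Wildtype replicate 5.

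Libraries of 1 genotype differed widely. The 9 genes together took 3.44%, 3.07%, 3.82%, 5.65% and 6.71% of all reads in PnocCre replicates 1 to 5, and 4.46%, 5.85%, 5.89%, 5.82% and 7.90% in Wildtype replicates 1 to 5. PnocCre replicates 1, 2 and 3 lay below every Wildtype library, while replicates 4 and 5 lay inside the Wildtype range. Fasn alone made up 3.02% of reads on average in PnocCre and 4.04% in Wildtype.

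**Figure D1:**
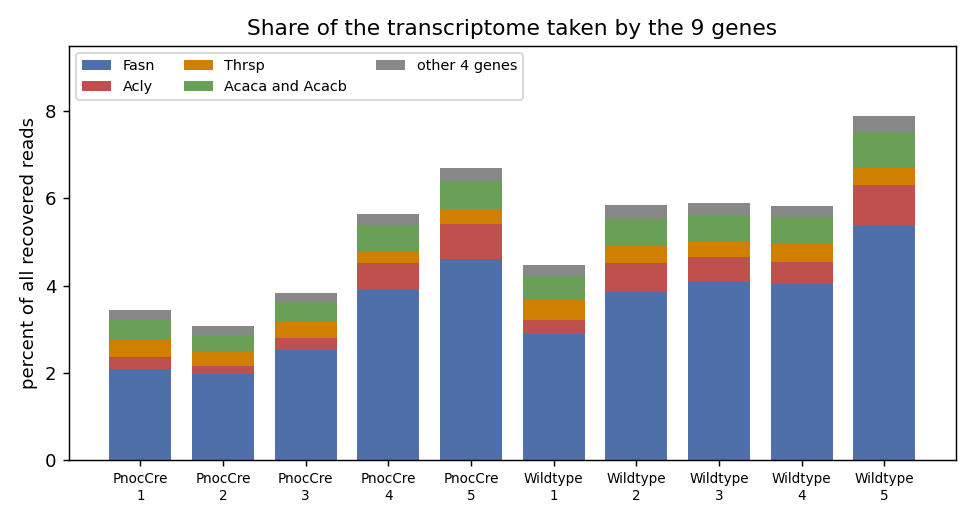
Stacked bars give the percent of all recovered reads that each gene or group of genes took in each of the 10 libraries. PnocCre replicates 1 to 3 had totals of 3.07% to 3.82%, and the other 7 libraries had 4.46% to 7.90%.

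Acly, which makes the cytosolic acetyl-CoA, varied most of the 9. Its normalised counts were 52329, 36421, 59959, 164814 and 193444 in PnocCre replicates 1 to 5, and 77413, 168648, 145989, 130598 and 249733 in Wildtype replicates 1 to 5. PnocCre replicates 4 and 5 exceeded 3 and 4 of the 5 Wildtype libraries, and replicates 1 to 3 lay below all of them, a 5.31-fold range within 1 genotype. Means were 101393 ± 72182 and 154476 ± 62960 (SD, n = 5 each), and the log2 fold change was -0.82 (SE 0.46, limma adjusted p 0.375). It was -0.53 without PnocCre replicate 2.

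Acaca, the cytosolic carboxylase that feeds fatty acid synthesis, had 56010, 45598, 66904, 107925 and 98635 normalised counts in PnocCre replicates 1 to 5. Wildtype replicates 1 to 5 had 90120, 101679, 103900, 103918 and 144827. Replicates 1 to 3 of PnocCre were again below every Wildtype library and replicates 4 and 5 were not. The log2 fold change was -0.60 (SE 0.24, limma adjusted p 0.241). Without PnocCre replicate 4, DESeq2 called Acaca (log2 fold change -0.71, adjusted p 0.0413), and with any other 1 library left out it did not (adjusted p 0.0919 to 0.438).

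Acacb, the carboxylase whose malonyl-CoA is thought to restrain fatty acid oxidation, had 29795, 23926, 35215, 53684 and 56387 in PnocCre and 44876, 54581, 54211, 54071 and 77813 in Wildtype, in replicate order. The same 3 PnocCre libraries were low, and the log2 fold change was -0.58 (SE 0.24, limma adjusted p 0.259). The pair kept nearly 1 proportion in all libraries. The ratio of Acacb to Acaca counts was between 0.497 and 0.572 in every library, although each gene ranged over 2.36-fold or more within PnocCre. The mean log2 ratio was -0.92 ± 0.07 in PnocCre and -0.94 ± 0.05 in Wildtype, a difference of 0.02 (exact permutation test, 2-sided, p = 0.667, adjusted p = 0.667 over 3 ratios).

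Fasn was the most abundant of the 9, at the 99.97th percentile of mean counts over all genes tested. Its normalised counts were 421953, 379332, 563520, 1008993 and 1128313 in PnocCre replicates 1 to 5, and 692271, 987371, 1045945, 1022120 and 1443159 in Wildtype replicates 1 to 5. PnocCre replicates 1 to 3 lay below the Wildtype range and replicates 4 and 5 within it. Means were 700422 ± 345577 and 1038173 ± 267657. The limma log2 fold change was -0.67 with a 95% interval from -1.36 to 0.02 (adjusted p 0.304), and that of DESeq2 was -0.57.

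Me1, the cytosolic malic enzyme, had 22659, 21447, 24158, 41305 and 44649 in PnocCre and 34085, 55416, 43810, 41194 and 62294 in Wildtype, in replicate order. The 3 low PnocCre libraries lay close together, and the other 2 fell inside the Wildtype range. The log2 fold change was -0.66 (SE 0.24, limma adjusted p 0.211), and DESeq2 called it without PnocCre replicate 5 (-0.79, adjusted p 0.0329) but not with any other 1 library left out (0.0538 to 0.351).

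**Figure D2:**
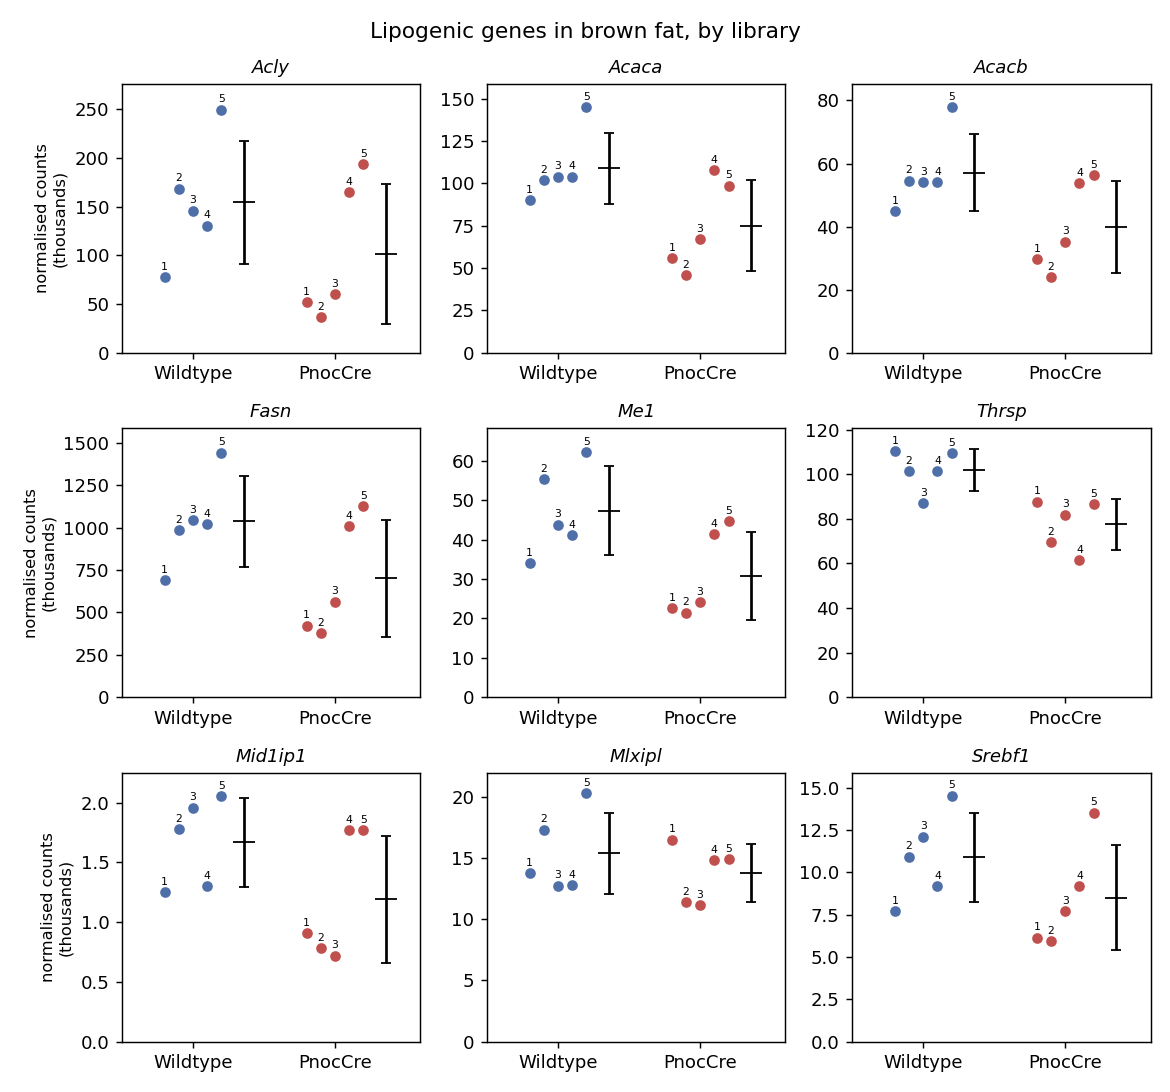
Points give normalised counts for each library, numbered by replicate, with the group mean and SD as a bar beside them. In 7 of the 9 genes at least 3 PnocCre libraries lay below the lowest Wildtype library, and in 0 of the 9 were the groups fully apart.

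Of the 9 genes, 7 had at least 3 PnocCre libraries under the lowest Wildtype library, where 18.5% of all genes tested had and 40.6% of the 2318 genes at least as abundant as Mid1ip1. For 0 of the 9 did the groups not overlap, where 4.40% of all genes tested did not (2.61% with PnocCre lower), and 8.41% of those abundant genes.

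The regulators did not share 1 pattern. Thrsp, also called Spot 14, is a small acidic protein linked to lipogenesis and known for its induction by thyroid hormone. It had 87733, 69419, 81963, 61646 and 86777 normalised counts in PnocCre replicates 1 to 5. In Wildtype replicates 1 to 5 it had 110535, 101376, 86925, 101397 and 109517. All 5 PnocCre libraries were below the Wildtype median and 4 of 5 below every Wildtype library, with PnocCre replicate 1 just above the lowest one. The PnocCre mean was 77508 ± 11482 and the Wildtype mean 101950 ± 9452 (SD, n = 5 each). The log2 fold change was -0.40 (SE 0.14, limma adjusted p 0.194), with the smallest adjusted p of the 9. In the authors' deposited table Thrsp stood at -0.40 with an adjusted p of 0.0582. DESeq2 called it without PnocCre replicate 1 (adjusted p 0.0472), without PnocCre replicate 5 (0.0422) or without Wildtype replicate 3 (0.0435). With any of the other 7 libraries left out it did not (DESeq2 adjusted p 0.0778 to 0.181). After rescaling to adipocyte markers the log2 fold change of Thrsp was -0.20 (limma adjusted p 0.508).

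Mid1ip1 encodes the paralogue of Thrsp, a protein that promotes polymerisation and activity of acetyl-CoA carboxylase. It had 909, 783, 720, 1769 and 1767 in PnocCre and 1251, 1776, 1957, 1298 and 2053 in Wildtype, in replicate order. PnocCre replicates 4 and 5 lay inside the Wildtype range, and the other 3 lay below it. The log2 fold change was -0.57 (SE 0.27, limma adjusted p 0.307). Thrsp counts exceeded Mid1ip1 counts in every library, from 34.8-fold in PnocCre replicate 4 to 114-fold in PnocCre replicate 3. The mean log2 ratio was 6.13 ± 0.72 in PnocCre and 5.96 ± 0.41 in Wildtype (exact permutation p = 0.667, adjusted p = 0.667 over 3 ratios).

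Srebf1, whose count joins the transcripts of its alternative starts, had 6145, 5944, 7717, 9168 and 13521 in PnocCre replicates 1 to 5. Wildtype replicates 1 to 5 had 7691, 10929, 12111, 9184 and 14528. Of the PnocCre libraries, 2 lay below the Wildtype range, and the log2 fold change was -0.39 (SE 0.235, limma adjusted p 0.398). Rai1 overlaps Srebf1 on the opposite strand and had 9.56% of its mean count. The sources used here do not give the strand setting of the counting, and reads in the overlap cannot be assigned with certainty.

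Mlxipl had the smallest difference of the 9. Its normalised counts were 16497, 11370, 11138, 14834 and 14905 in PnocCre and 13730, 17305, 12740, 12760 and 20256 in Wildtype, in replicate order. PnocCre replicate 1, which lay below the Wildtype range for 7 of the other 8 genes, was the highest PnocCre library here. The log2 fold change was -0.15 with a 95% interval from -0.52 to 0.21 (limma adjusted p 0.643), and it was 0.05 after rescaling to adipocyte markers. Leaving out Wildtype replicate 5 gave -0.046, leaving out PnocCre replicate 3 gave -0.081, and leaving out PnocCre replicate 2 gave -0.088. The log2 ratio of Mlxipl to Srebf1 was 0.75 ± 0.48 in PnocCre and 0.51 ± 0.28 in Wildtype (exact permutation p = 0.373, adjusted p = 0.667 over 3 ratios).

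**Figure D3:**
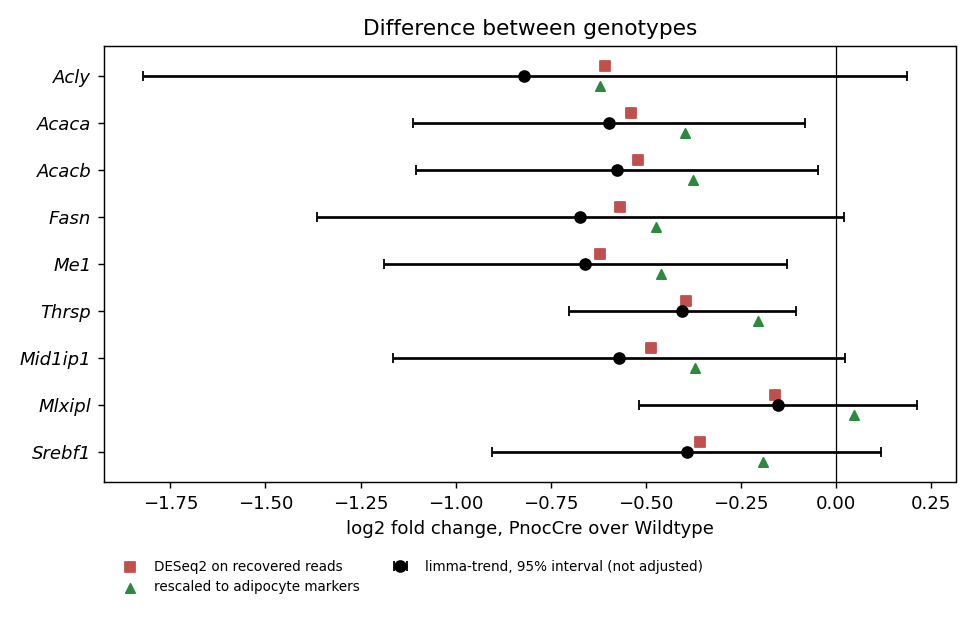
Black points and bars give the limma log2 fold change of each gene, PnocCre over Wildtype, with its 95% interval. Red squares give DESeq2 values and green triangles values after rescaling to adipocyte markers, where Mlxipl stood at 0.05 and the other 8 were below 0.

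Once the group means were removed, 7 of the genes moved together from library to library and Thrsp did not. Pearson's r between a gene and the mean of the other 8, over 10 libraries and as a description, was 0.990 for Acly, 0.975 for Acacb, 0.970 for Me1 and 0.963 for Fasn. It was 0.945 for Acaca, 0.914 for Srebf1 and 0.891 for Mid1ip1. For Mlxipl it was 0.554, and for Thrsp -0.081. These points share depth, size factor and tissue make-up, since all 9 values come from the same library. In PnocCre replicate 4, the library with the highest Acaca and Mid1ip1 of its group, Thrsp was the lowest of its group. Wildtype replicate 5 was highest of its group for 8 of the 9 genes, and Wildtype replicate 1 was lowest for 7 and highest for Thrsp.

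**Figure D4:**
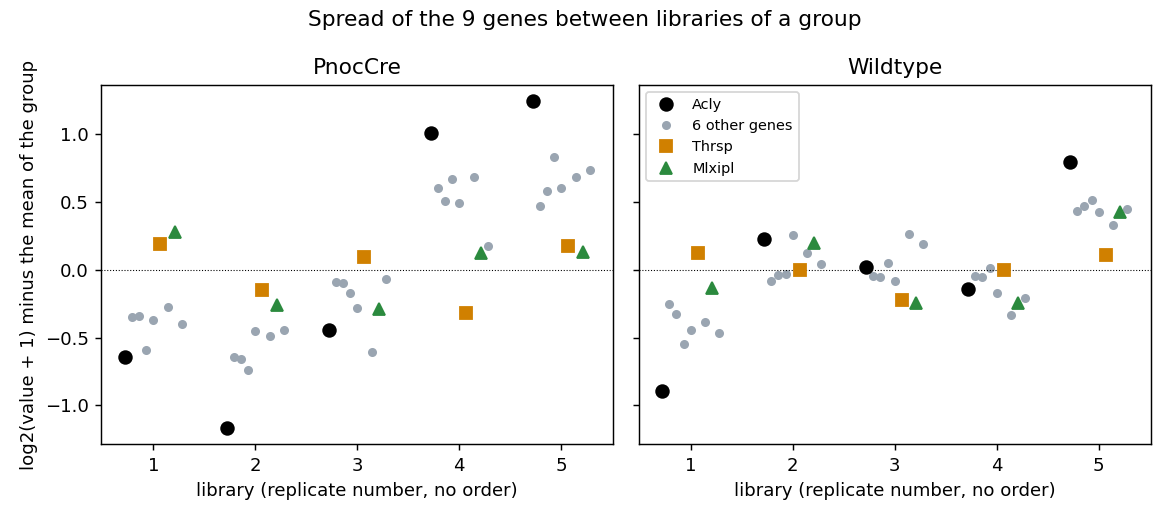
Points give each gene's log2(value + 1) minus its group mean in each library, with PnocCre on the left and Wildtype on the right. Acly ran from -1.17 to 1.24, whereas Thrsp stayed between -0.32 and 0.19 and Mlxipl between -0.29 and 0.42.

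The promoters of 4 genes are shown because they stand for these different patterns: Acly and Fasn, which followed the common swing, Thrsp, which did not, and Mlxipl, which followed it in part. The windows run from 250 bases before to 50 bases after an annotated start, from RefSeq on GRCm38.p6, a build other than that of the counts. Each is written 5′ to 3′ on the strand of the gene. Capitals mark matches, on either strand, to the E-box CACGTG bound by ChREBP and related factors, the sterol element TCACNCCAC, the box CCAAT, the GC box GGGCGG and the nuclear receptor element AGGTCA. RefSeq lists 2 starts of Mlxipl, 17001 bases apart, and the upstream one is shown. The deposited count does not separate them.
Acly, chr11:100527951-100528250, minus strand: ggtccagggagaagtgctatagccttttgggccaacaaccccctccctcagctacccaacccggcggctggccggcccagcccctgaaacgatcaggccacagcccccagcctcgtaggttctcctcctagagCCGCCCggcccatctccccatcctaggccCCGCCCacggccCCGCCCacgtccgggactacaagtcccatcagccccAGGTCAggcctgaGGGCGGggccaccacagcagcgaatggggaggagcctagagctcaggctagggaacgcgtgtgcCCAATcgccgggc
Fasn, chr11:120824498-120824797, minus strand: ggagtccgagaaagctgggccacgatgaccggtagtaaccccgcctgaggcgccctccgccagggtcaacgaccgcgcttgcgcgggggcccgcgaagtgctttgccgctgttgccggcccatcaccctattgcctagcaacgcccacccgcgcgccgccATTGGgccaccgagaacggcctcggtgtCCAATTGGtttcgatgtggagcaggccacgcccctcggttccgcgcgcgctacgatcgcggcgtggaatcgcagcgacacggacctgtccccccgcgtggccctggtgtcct
Thrsp, chr7:97417501-97417800, minus strand: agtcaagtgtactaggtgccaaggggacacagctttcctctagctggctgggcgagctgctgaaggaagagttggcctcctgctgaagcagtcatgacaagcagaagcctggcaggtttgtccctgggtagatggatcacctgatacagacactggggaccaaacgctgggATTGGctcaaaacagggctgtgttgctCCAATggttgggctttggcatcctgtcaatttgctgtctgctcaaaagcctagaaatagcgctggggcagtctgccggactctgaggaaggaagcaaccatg
Mlxipl, chr5:135089640-135089939, plus strand: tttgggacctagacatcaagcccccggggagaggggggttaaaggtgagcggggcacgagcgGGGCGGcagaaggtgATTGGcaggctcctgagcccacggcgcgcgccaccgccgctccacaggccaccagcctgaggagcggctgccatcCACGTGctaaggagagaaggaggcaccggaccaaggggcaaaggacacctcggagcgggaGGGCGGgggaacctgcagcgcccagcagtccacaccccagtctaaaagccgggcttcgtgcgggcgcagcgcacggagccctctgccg

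Fasn held 3 matches to CCAAT, beginning at -90, -62 and -59 from the start, and the last 2 overlap. Thrsp held 2, at -79 and -52. Acly held 1, at 37, beside 4 GC boxes. The upstream Mlxipl window was the only 1 of 13 windows of the 9 genes with CACGTG, at -98, where 7.15% of 32851 mouse windows had it. Across the 9 genes CCAAT occurred in 8 of 13 windows (61.5%), against 37.4% of all windows, and GGGCGG in 6 (46.2%), against 35.7%. The only Acaca window, which held no match, lies downstream of the start of Acaca in the counted annotation. This was judged from the positions of Acly, Fasn and Srebf1 on both builds. That upstream start of Acaca is not in these tallies. TCACNCCAC occurred in 1 window, the downstream one of Mlxipl, and in 1.24% of all windows, and AGGTCA in 2 (15.4%), against 16.3%. A match is a string of letters and not a site of binding.

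Per kilobase of deposited gene length, the order of mean levels in Wildtype was Fasn, Thrsp, Acly, Me1, Acaca, Acacb, Mlxipl, Srebf1 and Mid1ip1. Fasn had 94836 ± 24450 normalised counts per kilobase, Thrsp 46574 ± 4318 and Acly 29262 ± 11926. The ranges of Thrsp and Acly overlapped over the 5 libraries, as did those of Acly and Me1, of Acaca and Acacb, and of Mlxipl and Srebf1. Acaca, at 6377 ± 1223, and Acacb, at 5929 ± 1274, were close to each other, with Mid1ip1 lowest at 783 ± 175. That closeness depends on the deposited lengths, 17074 bases for Acaca and 9632 for Acacb. Without division by length, Acacb counts were 0.497 to 0.572 of Acaca counts. The order of means was the same in PnocCre, where Fasn had 63983 ± 31568 and Thrsp 35408 ± 5245 per kilobase. There the ranges of Fasn and Thrsp overlapped, and in PnocCre replicate 1 Thrsp (40079) was above Fasn (38545).

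Of 14 genes that supply citrate, acetyl-CoA and NADPH to the pathway, 14 had log2 fold changes below 0, with a median of -0.44. All 14 stayed below 0 after rescaling to adipocyte markers. Before rescaling, 50.7% of all genes tested were below 0, and 77.0% of the 2318 genes at least as abundant as Mid1ip1. The mean log2 level of the list ran from 12.46 to 13.12 in PnocCre and from 13.17 to 13.55 in Wildtype. Genes of mitochondrial fatty acid synthesis, described below, did not overlap as a list either (10.33 to 10.69 and 10.81 to 11.0). Taken singly, Rpia, Taldo1 and Mdh1 of the supply list did not overlap. Of the mitochondrial list, Acsf3, Mcat, Mecr and Lias did not. Of single genes tested, 2.61% did not overlap with PnocCre lower. That share is no background for a list mean, which averages several genes. The lists were written with earlier results of these data known, and the list means were not tested. With limma 0 of the 14 supply genes passed, and 8 had an unadjusted p under 0.05, all lower. By that rule 8.07% of all genes tested were lower, and 22.0% of the 2318 genes at least as abundant as Mid1ip1. DESeq2 called 5 of the 14, all lower, where 1.24% of genes with an adjusted p were called lower. The DESeq2 share among abundant genes alone was not computed. Rpia, of the pentose phosphate pathway, had 492 ± 29.3 and 700 ± 51.9 normalised counts (log2 fold change -0.51, SE 0.09). Slc25a1, the mitochondrial citrate carrier, had 24176 ± 4505 and 39212 ± 6829 (-0.70, SE 0.16), and Taldo1, a transaldolase, had 24521 ± 1883 and 33166 ± 2471 (-0.44, SE 0.11). DESeq2 called these 3, with adjusted p-values of 0.000228, 0.00335 and 0.0009.

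Of 15 measured genes of desaturation and elongation, which act on the product of Fasn, 12 were below 0, with a median of -0.33. After rescaling to adipocyte markers 10 were below 0. With limma 0 passed, and DESeq2 called 3, all lower. Elovl3, an elongase typical of brown fat, had a log2 fold change of -1.18 (SE 0.25), Hsd17b12, a reductase of elongation, -0.60 and Hacd2, a dehydratase of elongation, -0.51. Of 8 measured genes of the separate mitochondrial pathway of fatty acid synthesis, 8 were below 0, with a median of -0.37. After the rescaling 6 were below 0. With limma 0 passed, and DESeq2 called 2, both lower. Acsf3, the mitochondrial malonyl-CoA synthetase, stood at -0.51 (SE 0.13), Mcat at -0.35 and Mecr at -0.39. For comparison, 50.7% of all genes tested and 77.0% of the 2318 genes at least as abundant as Mid1ip1 were below 0. Among genes with an adjusted p, DESeq2 called 1.24% lower. The list values set the enzymes on either side of Fasn beside it, and differences between lists were not tested.

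Control genes of the pathway were also measured. Their counts below 0 lay near the 77.0% of the 2318 genes at least as abundant as Mid1ip1, where 50.7% of all genes tested were below 0. Many of these control genes were less abundant than Mid1ip1, among them Usf1, Sp1 and Khk. No share matched to their abundance was computed. Of 15 genes of SREBP processing and its partner factors, 12 were below 0, with a median of -0.21, and 0 were called by limma or DESeq2. After rescaling to adipocyte markers 8 were below 0. Scap, which escorts SREBP to the Golgi, had -0.29 (SE 0.10), the E-box factor Usf2 -0.34 and Insig1, which retains SREBP and is itself an SREBP target, -0.67 (SE 0.26). Of 11 measured partners and targets of ChREBP, 8 were below 0, with a median of -0.31. After the rescaling 7 were below 0. With limma 0 passed, and DESeq2 called 1, Gpd1. Gpd1, which makes glycerol phosphate, had 111252 ± 29125 and 182406 ± 18173 (-0.75, SE 0.19, DESeq2 adjusted p 0.00958). Mlx, the obligate partner of ChREBP, stood at -0.33 (SE 0.10) and the hexokinase Hk2 at -0.72 (SE 0.24).

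Genes that act on acetyl-CoA carboxylase had a median of -0.10, with 8 of 10 below 0 (4 of 10 after rescaling to adipocyte markers) and 0 passing with limma. DESeq2 called 1, Mlycd, the decarboxylase that removes malonyl-CoA (-0.41, SE 0.12, DESeq2 adjusted p 0.0428). The AMPK subunits Prkab2 and Prkab1 stood at 0.37 and -0.35. Insulin signalling genes had a median of -0.22, with 10 of 14 below 0 (8 after the rescaling) and 0 called by limma or DESeq2. Akt2, the main Akt kinase of insulin action in fat, had -0.38 (SE 0.16), Mtor -0.60 (SE 0.26) and Tsc2, an inhibitor of mTOR, -0.33 (SE 0.16). Here too the counts below 0 before rescaling lay near the 77.0% of the 2318 abundant genes, with 50.7% over all genes tested. Many genes of these lists were again less abundant than Mid1ip1, among them Prkaa1 and Irs1.

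**Figure D5:**
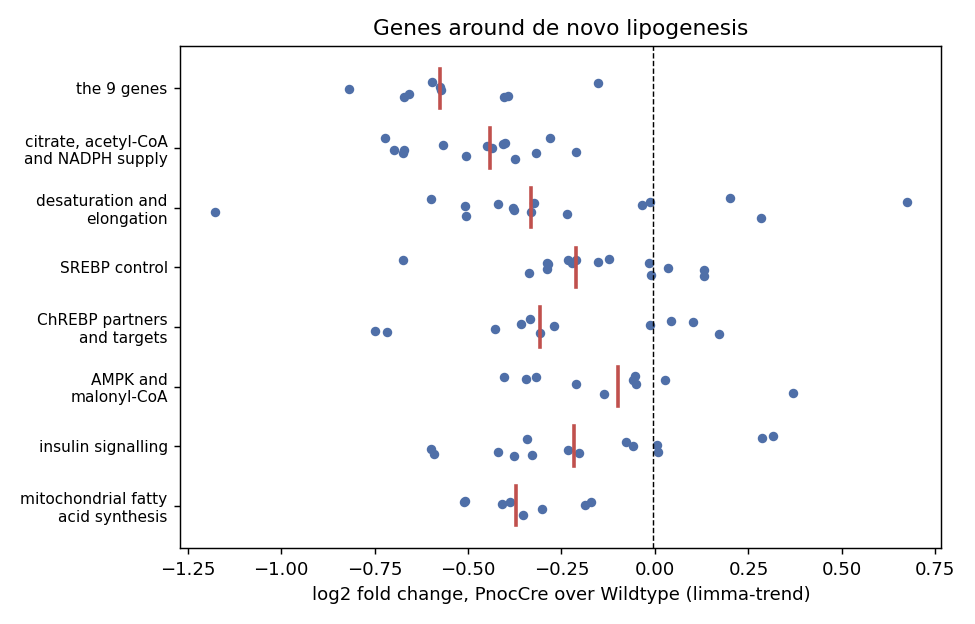
Each point is 1 gene's limma log2 fold change, PnocCre over Wildtype, by list, with the list's median as a red bar and the median of all genes tested (-0.01) as a dashed line. Medians ran from -0.58 for the 9 genes to -0.10 for genes acting on acetyl-CoA carboxylase.

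Marker RNA of several cell types differed between the same libraries, and cell numbers were not measured. All 12 brown adipocyte markers were measured, 10 of them below 0, with mean log2 levels of 10.42 to 10.87 in PnocCre and 10.83 to 11.15 in Wildtype. Ucp1, the uncoupling protein that makes heat, stood at 59511 to 71596 normalised counts in PnocCre and 79046 to 108368 in Wildtype. Others of this list went the other way or hardly differed: Lhx8 had a log2 fold change of 0.83, Zic1 0.10 and Ppargc1a -0.04. In whole tissue, fewer adipocytes and less lipogenic RNA per adipocyte cannot be told apart. Skeletal muscle markers (19 of 20 measured, 0 of 20 absent from every library) had a mean log2 level of 7.59 to 12.43 in PnocCre and 2.22 to 9.30 in Wildtype, with 19 of 19 higher. Of the PnocCre libraries, replicates 4 and 5 had the highest muscle marker levels (11.55 and 12.43) as well as the most lipogenic RNA. In Wildtype, replicate 5 had the most lipogenic RNA and the lowest muscle marker level (2.22). Fibroblast markers ran from 9.27 to 9.90 and from 8.41 to 9.37 (14 of 14 higher), macrophage markers from 7.33 to 7.94 and from 7.06 to 7.33 (11 of 12 higher). White adipocyte markers ran from 7.57 to 8.94 and from 6.69 to 7.93 (7 of 7 measured higher). Endothelial markers ran from 10.44 to 11.39 and from 10.33 to 11.27 (11 of 12 higher), and Schwann cell markers from 6.68 to 8.05 and from 7.01 to 7.63 (5 of 8 higher). Lymphocyte markers stood at 8.84 in PnocCre replicate 2, the library with the lowest lipogenic share, and at 2.46 to 4.17 in the other 9.

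General adipocyte markers (10 of 10 measured, 9 below 0, median -0.18) had mean log2 levels of 14.76, 14.63, 15.20, 14.99 and 15.15 in PnocCre replicates 1 to 5, and 15.06 to 15.30 in Wildtype. Their log2 fold changes were uneven. Cidec, Plin1, Pnpla2, Lipe and Pparg had -0.47, -0.41, -0.38, -0.35 and -0.30. Adipoq, Fabp4, Dgat2 and Cd36 had -0.07, -0.07, -0.05 and -0.04, and Lpl had 0.13. Rescaling to all 10 markers removes their mean difference, whatever its source. After rescaling every library to these markers, log2 fold changes ran from -0.62 for Acly to 0.05 for Mlxipl, with a median of -0.38, on a scale where the median of all genes moved from -0.01 to 0.19. The part of cell make-up in the differences was not otherwise tested.

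A trend with gene length also differed between libraries. Over 11030 protein-coding genes, the median centred log2 value of the longest 20% minus that of the shortest 20% was -0.11, -0.01, -0.10, 0.29 and 0.09 in PnocCre replicates 1 to 5. In Wildtype replicates 1 to 5 it was -0.24, -0.05, 0.06, -0.03 and 0.07. The libraries with the highest lipogenic share in each group were also those with values above 0 on this measure. PnocCre replicate 2 had the lowest share (3.07%) and a value above those of replicates 1 and 3. PnocCre replicate 5 had a higher share than replicate 4 (6.71% and 5.65%) and a lower value. With the length trend removed from each library, the 9 log2 fold changes ran from -0.83 for Acly to -0.16 for Mlxipl and the median was -0.60. Mid1ip1 (2128 bases) followed the common swing, and Thrsp (2189 bases) did not. They are single genes, and the part of gene length in the swing was not tested.

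The genes outside the set whose levels followed the mean of the 9 most closely, with group means removed, were Gtf3c1, Exoc4, Ank, Agfg2, Aacs, Furin, Ptger3 and Tmem179. Their Pearson's r ran from 0.981 to 0.988 over 10 libraries (Spearman's rho 0.952 to 1.0), the highest among 11777 genes ranked. Aacs, which makes acetoacetyl-CoA for lipid synthesis in the cytosol, was the only 1 of these on the list of precursor supply. Its means were 9410 ± 4078 (PnocCre) and 14226 ± 3750 (Wildtype) normalised counts (log2 fold change -0.67, SE 0.29, limma adjusted p 0.262). Gtf3c1, a subunit of the RNA polymerase III factor TFIIIC, and Exoc4, of the exocyst, followed the swing with log2 fold changes of -0.06 and -0.13. Such likeness describes these 10 libraries, whose values share depth, make-up and the length trend.

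Positions in the counted annotation, on GRCm39, place Acly on chromosome 11 (100367179 to 100418826), Acaca on chromosome 11 (84020498 to 84292477) and Fasn on chromosome 11 (120696672 to 120715373). Srebf1 is on the same chromosome (60089915 to 60113407). Acacb (114284596 to 114388822) and Mlxipl (135118744 to 135167236) are on chromosome 5, Me1 on chromosome 9 (86463424 to 86578006), Thrsp on chromosome 7 (97062145 to 97066937) and Mid1ip1 on chromosome X (10581252 to 10585929). Apart from Rai1, genes overlapping the 9 had at most 0.142% of the count of the gene they overlap.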

How the data were processed

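Per the submitters' processing notes, the authors worked on GRCm39 with DESeq2, whose version is not listed, featureCounts 1.5.0-p3 and HISAT2 2.0.5. The sources used here do not give the annotation release or strand setting. The deposited values are a normalised signal, read counts divided by 1 size factor per library, beside the authors' log2 fold changes, p-values and gene lengths, per the file headers. Whole reads were recovered from all 10 columns (100% of values whole within 0.01 reads), giving 21304238 to 29171787 reads per library. That depth keeps counting error small for the 9 genes, the scarcest of which had 798 reads or more in every library.

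The main test was limma-trend with robust moderation on log2(value + 1), 5 PnocCre against 5 Wildtype libraries, for 15301 genes averaging 10 or more, 2-sided, with Benjamini-Hochberg adjustment over all of them. Log2 fold changes on this scale understate low genes. Ratios of 2 members were compared by exact permutation over 252 splits, where the smallest p is 0.00794. Alternatives were edgeR's quasi-likelihood test, DESeq2 and voom on recovered reads, other scalings, filters, pseudocounts and weights, and each library left out. DESeq2 with libraries left out and the length trend were added after the data were seen. DESeq2 here called the same 575 genes as the authors' deposited table. Only the main limma fit was run on simulated counts, with changes planted in 200 genes. The planted changes were larger than the differences of the 9 genes, and no swing shared between genes was simulated. Named genes are the 9 members, the 3 smallest p of each pathway list, and the 8 genes most like the members. The members and lists were chosen with earlier results of these data known. Replicates are numbered in accession order and pair no samples. Software was DESeq2 1.42.0, edgeR 4.0.16 and limma 3.58.1 under R 4.3.3.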

Additional observations from a re-analysis of the deposited data

Results flagged for a closer look

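Acaca stood at 144827 normalised counts in Wildtype replicate 5, far from the 90120 to 103918 of the other 4 Wildtype libraries, with a gap of 0.748 of the range of the group. Of 24 groups of 5 values examined, this was the only 1 so far apart, and chance gives about 1 in 20. Without this library the Acaca log2 fold change was -0.49 (limma adjusted p 0.413).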

How the results depend on the processing

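Over 189 values of the 9 log2 fold changes under the alternatives planned, 188 were negative and 0 passed, from -1.13 to 0.05, with adjusted p from 0.0582 to 0.92. The positive value was Mlxipl rescaled to adipocyte markers (0.048, limma adjusted p 0.92). Genes called numbered 0 with limma, edgeR (2606 at an unadjusted p under 0.05) and voom (2407), 575 with DESeq2, 29 after rescaling to adipocyte markers and 53 with library weights. With 1 library left out they were 0 to 1 with limma and 216 to 745 with DESeq2 (439, 292, 578, 745 and 655 without PnocCre replicates 1 to 5, and 532, 216, 409, 273 and 241 without Wildtype replicates 1 to 5). DESeq2 then called Acaca without PnocCre replicate 4 (-0.71), Me1 without PnocCre replicate 5 (-0.79) and Thrsp without PnocCre replicate 1, PnocCre replicate 5 or Wildtype replicate 3 (-0.45, -0.44 and -0.45). Differences of log2 ratios ran from -0.007 to 0.043 for Acacb over Acaca, from -0.009 to 0.418 for Thrsp over Mid1ip1 and from 0.07 to 0.391 for Mlxipl over Srebf1, turning sign without PnocCre replicate 5 and without PnocCre replicate 3 in the first and second. The cause of these changes was not tested. No paired analysis was possible because no number is shared by a library of each group. Library numbers in the titles run close across genotypes in places, but the labels do not say that they mark a litter, batch or day. What more reads or libraries would change was not tested.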
